A study of Mus musculus with 6 samples.

Results

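A set of 10 genes of signalling through the immunoreceptor tyrosine-based activation motif (ITAM) were examined, chosen by gene symbol from a fixed list: Fcer1g, Lyn, Fyn, Syk, Btk, Lcp2, Vav1, Vav3, Plcg2 and Inpp5d. The list was drawn up with earlier results of these data known. These are 10 of the 55573 genes in the deposited count table, and all 10 passed the filter on low counts. The 6 mouse samples, which the labels call megakaryocytes (the platelet-forming cells of the marrow), were 3 wild-type (WT) and 3 Abcc4-/-. The targeted gene, Abcc4, encodes a membrane transporter that exports cyclic nucleotides and nucleotide-type drugs. The sample titles carry the abbreviations BM and CD41. No treatment is named for either genotype, and age, strain and cell isolation are not given in the sources used here. Whether samples of one genotype came from separate mice is not stated, so each p-value reflects only the spread among these libraries, part of which may be technical.

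An ITAM is a short stretch in the tail of a receptor or its signal chain that carries a pair of tyrosines. Src family kinases such as Lyn and Fyn phosphorylate those tyrosines, and the kinase Syk then docks there through its SH2 domains. Syk phosphorylates adaptors, above all the scaffold SLP-76 (gene Lcp2), on which the Tec family kinase Btk, the Vav exchange factors and phospholipase C gamma 2 (Plcg2) gather. In megakaryocytes and platelets this route serves the collagen receptor GPVI, which signals through the Fc receptor gamma chain (Fcer1g), and CLEC-2, which carries a single-tyrosine version of the motif. Granulocytes, monocytes, mast cells and B cells use the same enzymes behind their Fc, lectin and antigen receptors.

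The sequences that code for the motif in the signal chains measured here are shown because they encode the docking site of Syk on which the 10 genes converge. They were read from the reference transcripts of GENCODE M21 on GRCm38. Capitals mark the codons of the tyrosine and of the leucine or isoleucine that follows it after 2 further codons.
Fcer1g: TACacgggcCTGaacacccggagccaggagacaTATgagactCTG
Tyrobp: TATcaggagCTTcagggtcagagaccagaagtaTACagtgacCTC
Cd79a: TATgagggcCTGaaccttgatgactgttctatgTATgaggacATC
Cd79b: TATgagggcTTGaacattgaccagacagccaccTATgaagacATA
Clec1b: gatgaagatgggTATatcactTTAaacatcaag
In Fcer1g, Tyrobp, Cd79a and Cd79b the signatures are separated by 7 codons. Fcer1g has its motif at chr1:171229889-171230072 on the minus strand, starting at codon 65 of 86. Tyrobp, the chain also called DAP12, has it at chr7:30415670-30417382 on the plus strand, and Cd79a, a chain of the B cell antigen receptor, at chr7:24901296-24901469 on the plus strand. Its partner Cd79b has it at chr11:106311867-106312012 on the minus strand. Each of these 4 stretches spans 2 exons. Clec1b, the gene of CLEC-2, has 1 tyrosine signature near its start, at chr6:129397621-129397653 on the plus strand.

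The libraries held 50440283 to 55123551 expected counts in WT and 67009967 to 99294510 in Abcc4-/-, so each Abcc4-/- library was deeper than each WT library. Single members had between 3019 and 59868 counts in a library. Values are given as CPM, counts scaled to a common library size with TMM, a normalization for library composition, unless TPM is named, which also divides by transcript length. Abcc4 itself stood at 74.2, 71.8 and 75.7 CPM in WT and 60.1, 60.5 and 62.3 CPM in Abcc4-/- (log2 fold change -0.28, SE 0.05; edgeR, adjusted p = 0.0026). Which part of Abcc4 the allele lacks is not stated, so whole-gene counts do not check the genotype labels. Of 16493 genes tested with edgeR's quasi-likelihood test, 17.3% passed an adjusted p of 0.05, 8.61% higher and 8.68% lower in Abcc4-/-.

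The 10 genes differed little between the genotypes. Syk alone was called, 1.14-fold higher in Abcc4-/-, and the other 9 did not pass. The counts of 1 of 10 higher and 0 of 10 lower stand beside the 8.61% and 8.68% of all genes called in those directions. At an unadjusted p below 0.05, 2 were higher and 1 lower, beside 5092 of all 16493 genes tested in either direction. DESeq2, run on 26780 genes with a looser filter, called 2 higher and 0 lower, beside 1474 and 1463 of all genes. With limma-voom 1 was higher and 0 lower, beside 1415 and 1421 of all genes. The median log2 fold change was 0.01 for the 10 genes and 0.00 for all genes tested, and the median of its absolute value was 0.06 and 0.13. Abundance was not matched in this comparison. The 95% intervals of the 10 fold changes lay between 0.861 and 1.24 of the WT level. The groups did not overlap for 5 of the 10 genes, 4 higher and 1 lower, beside 36.8% of all genes tested (18.4% higher and 18.3% lower).

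**Figure D1:**
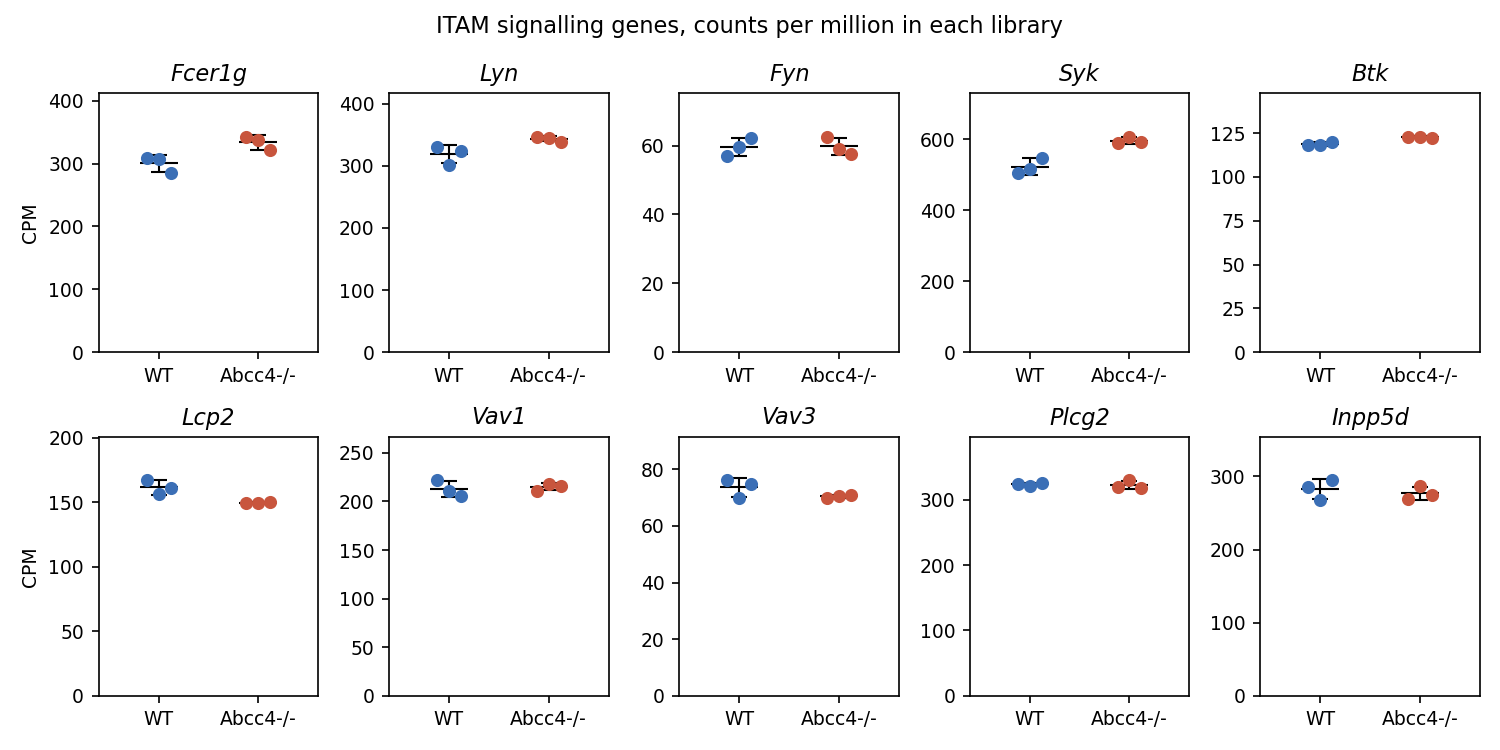
CPM of the 10 genes in each library (points), with the mean and SD of 3 libraries per genotype (black). Every axis starts at 0; the groups are apart for Fcer1g, Lyn, Syk, Btk and Lcp2, with means at most 1.14-fold apart.

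Fcer1g, the signal chain that GPVI and the activating Fc receptors share, stood at 309, 307 and 285 CPM in WT and 343, 337 and 321 CPM in Abcc4-/-. Each Abcc4-/- library lay above each WT library. The difference was 1.11-fold (log2 fold change 0.15, SE 0.05) and did not pass (edgeR, adjusted p = 0.0795), while DESeq2 placed it below the threshold (adjusted p = 0.0380). In TPM the groups did not overlap either, at 874, 848 and 838 in WT against 906, 912 and 884 in Abcc4-/-.

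Lyn, the Src family kinase that both starts ITAM signalling and phosphorylates inhibitory receptors, had 330, 302 and 324 CPM in WT and 347, 344 and 339 CPM in Abcc4-/-. The Abcc4-/- libraries were higher in every case, by 1.08-fold on average, which did not pass (95% interval 0.995 to 1.17; edgeR, adjusted p = 0.190). In TPM the Lyn groups overlapped. Lyn is overlapped on the opposite strand by Gm26857, a long noncoding RNA gene that was also tested; the tables are marked as stranded. Fyn, the partner of Lyn beside GPVI, had 56.9, 59.5 and 62.1 CPM in WT and 62.6, 59.1 and 57.6 CPM in Abcc4-/-. The Fyn groups overlapped and their means were 59.5 and 59.8 CPM (95% interval of the fold change 0.924 to 1.09; adjusted p = 0.963).

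Syk, the kinase that docks on the phosphorylated motif, had 504, 516 and 548 CPM in WT and 589, 607 and 592 CPM in Abcc4-/-. It was 1.14-fold higher in Abcc4-/- (523 ± 22.8 to 596 ± 9.38 CPM, SD, n = 3; log2 fold change 0.19, SE 0.05; edgeR, adjusted p = 0.0339). The call ended without WT replicate 1 or 2 or without any 1 of the Abcc4-/- replicates (edgeR, adjusted p = 0.0684 to 0.132), with log2 fold changes from 0.16 to 0.20. In TPM the groups overlapped, at 139, 142 and 160 in WT and 151, 159 and 160 in Abcc4-/-, and limma on log2(TPM + 1) gave 0.10 (adjusted p = 0.315). With each library centred on its median the value was 0.18 (adjusted p = 0.0557).

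Btk, the Tec family kinase that activates phospholipase C gamma 2, had 118, 118 and 120 CPM in WT and 123, 123 and 122 CPM in Abcc4-/-. The groups did not overlap, but the means were only 1.03-fold apart and the test did not pass (95% interval 0.966 to 1.11; edgeR, adjusted p = 0.518). In TPM the Btk groups overlapped, and on log2(TPM + 1) its sign turned (-0.03).

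Lcp2, which encodes the scaffold SLP-76, had the lowest log2 fold change of the 10 genes, with 167, 156 and 161 CPM in WT and 149, 149 and 150 CPM in Abcc4-/-. Each Abcc4-/- library lay below each WT library, by 1.08-fold on average (log2 fold change -0.11, SE 0.05; edgeR, adjusted p = 0.140). In TPM, Lcp2 had 85.0, 78.2 and 85.6 in WT and 69.7, 70.6 and 73.7 in Abcc4-/-. On log2(TPM + 1) it passed (-0.21; limma, adjusted p = 0.0360), on a scale where the median of all genes was -0.06. With each library centred on its median it did not (-0.12; limma, adjusted p = 0.147).

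Vav1 and Vav3 encode exchange factors that switch on Rac GTPases at the scaffold. Vav1 had 222, 211 and 206 CPM in WT and 211, 218 and 216 CPM in Abcc4-/-, with overlapping groups (95% interval of the fold change 0.937 to 1.09; edgeR, adjusted p = 0.863). Vav3 had 76.2, 69.9 and 75.0 CPM in WT and 70.0, 70.6 and 71.0 CPM in Abcc4-/-. The Vav3 groups overlapped too, since WT replicate 2 was the lowest of the 6 libraries (95% interval 0.887 to 1.03; adjusted p = 0.431). In TPM, however, the Vav3 groups did not overlap, at 25.2, 24.3 and 26.3 in WT and 23.0, 24.1 and 23.8 in Abcc4-/-. On log2(TPM + 1) Vav3 had a log2 fold change of -0.09, on a scale where the median of all genes was -0.06. With each library centred on its median, Vav3 was at -0.0048.

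Plcg2, the enzyme that releases inositol trisphosphate and diacylglycerol, had 324, 321 and 326 CPM in WT and 319, 330 and 318 CPM in Abcc4-/-. Its groups overlapped and its fold change was close to 1 (95% interval 0.926 to 1.07; edgeR, adjusted p = 0.963). In TPM the Plcg2 groups did not overlap, at 106, 105 and 112 in WT and 97.7, 104 and 103 in Abcc4-/-. On log2(TPM + 1) Plcg2 had a log2 fold change of -0.08, on a scale where the median of all genes was -0.06. With each library centred on its median, Plcg2 was at 0.0059. Inpp5d encodes SHIP1, the lipid phosphatase that removes the product of PI3-kinase and so restrains the pathway, and is the 1 inhibitor among the 10 genes. It had 286, 268 and 295 CPM in WT and 269, 287 and 275 CPM in Abcc4-/-, again with overlapping groups (95% interval 0.902 to 1.06; adjusted p = 0.764).

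**Figure D2:**
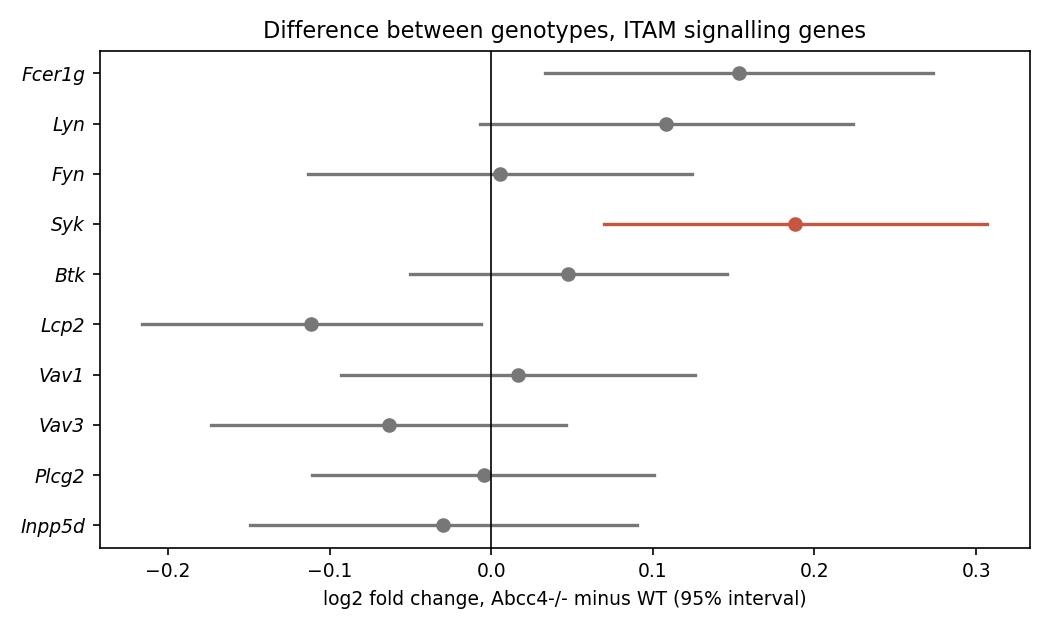
Log2 fold change of each of the 10 genes, Abcc4-/- minus WT, from edgeR (points) with its 95% interval (lines); red marks a gene with an adjusted p below 0.05. Syk is the 1 red gene, at 0.19, and all intervals lie between -0.216 and 0.307.

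The replicates agreed closely for these genes. The SD was between 0.345% and 4.81% of the mean within a genotype, and the SE of the log2 fold change between 0.0448 and 0.0548. WT replicate 1, Abcc4-/- replicate 1 and Abcc4-/- replicate 2 were each the highest for 3 genes, and WT replicates 1 and 2 were each the lowest for 3, so that WT replicate 1 was at one end or the other for 6 of the 10. The 10 genes together took 0.234% to 0.242% of the counts in WT and 0.246% to 0.251% in Abcc4-/-. In TPM the summed shares overlapped, at 0.164% to 0.171% and 0.168% to 0.173%.

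Levels could be ordered between genes in TPM. Fcer1g was the most abundant transcript of the 10, with 853 ± 18.4 TPM in WT and 901 ± 14.4 TPM in Abcc4-/- (SD, n = 3). Syk followed with 147 ± 11.2 and 157 ± 5.18 TPM, and Lyn with 137 ± 9.06 and 139 ± 2.13 TPM. Syk and Lyn overlapped in WT and not in Abcc4-/-. Inpp5d, Vav1 and Plcg2 came next, at 113 ± 12.5, 110 ± 3.11 and 107 ± 3.68 TPM in WT, and could not be ordered beyond their spread in either genotype. Lcp2 (82.9 ± 4.12 TPM in WT) and Btk (71.8 ± 3.21 TPM) were apart in WT and overlapped in Abcc4-/-, where they had 71.3 ± 2.11 and 70.1 ± 2.20 TPM. Fyn (34.5 ± 1.91 TPM in WT) and Vav3 (25.3 ± 1.01 TPM) were the lowest in both genotypes.

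**Figure D3:**
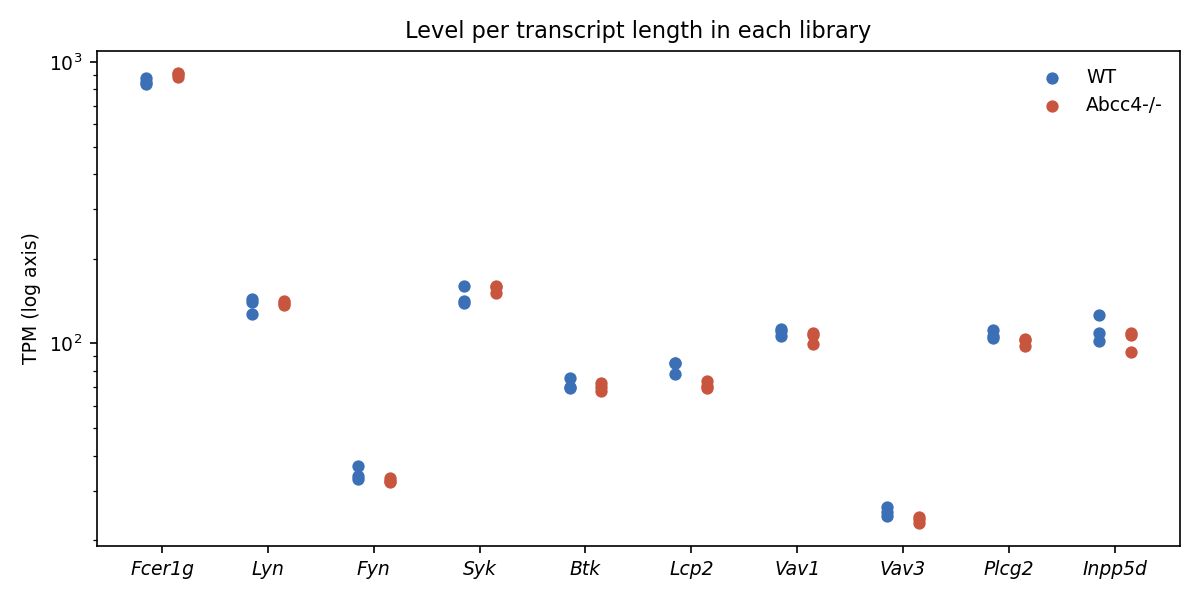
TPM of the 10 genes in each library on a log axis, WT in blue and Abcc4-/- in red. Fcer1g stands above the rest at 838 to 912 TPM, and Vav3 lowest at 23.0 to 26.3 TPM.

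Ratios within a library do not depend on the scaling of that library. In all, 9 ratios of a member to a relative were compared in TPM by exact two-sided permutation, whose smallest p for 3 against 3 is 0.1, so none could pass. Lyn exceeded Fyn 3.97-fold in WT and 4.25-fold in Abcc4-/- (exact p = 0.3), and Vav1 exceeded Vav3 4.35-fold and 4.45-fold (exact p = 0.5). Plcg2 exceeded Plcg1 7.55-fold and 7.31-fold (exact p = 0.5). Fcer1g stood at 0.461 and 0.465 of the level of Tyrobp (exact p = 0.6). The groups did not overlap for 2 of the ratios, each with an exact p of 0.1 (adjusted p = 0.45 over the 9 ratios). The log2 ratio of Inpp5d to Inppl1, the gene of the related phosphatase SHIP2, went from 2.84 ± 0.0621 in WT to 3.07 ± 0.0409 in Abcc4-/- (SD, n = 3). That of Syk to Zap70, the T and NK cell relative of Syk, went from 6.63 ± 0.345 to 5.69 ± 0.0903. Inppl1 itself, picked after its values were seen, was called lower (log2 fold change -0.26; edgeR, adjusted p = 0.014). Inpp5d stood at -0.03 (edgeR, adjusted p = 0.764), and Zap70 was called higher (1.16; edgeR, adjusted p = 0.000727).

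The receptors of the megakaryocyte end of the pathway were scarce beside the 10 genes. Gp6, the gene of GPVI, had 18, 6 and 11 counts in the WT libraries and 12, 16 and 9 in the Abcc4-/- libraries, or 0.111 to 0.327 CPM. Clec1b averaged 1.58 ± 0.150 CPM in the WT libraries and 1.69 ± 0.326 CPM in the Abcc4-/- libraries (SD, n = 3; edgeR, adjusted p = 0.782), and Gp6 did not pass either (adjusted p = 0.439). Mpig6b, the gene of the platelet inhibitory receptor G6b-B, picked after its values were seen, had 0.299 ± 0.0404 and 0.203 ± 0.0072 CPM (adjusted p = 0.230). Lat, the membrane adaptor that GPVI signalling uses, had 12.7 ± 1.25 and 11.4 ± 0.320 CPM (adjusted p = 0.237). By contrast Tyrobp, the signal chain of many myeloid receptors, stood at 550 ± 30.0 and 604 ± 23.9 CPM (adjusted p = 0.145), also picked after its values were seen.

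Markers of several cell types were present and moved with genotype. Where genes are counted, rose and fell mean an adjusted p below 0.05 (edgeR), as for 8.61% and 8.68% of all genes. The summed share of 10 neutrophil markers was 2.20% to 2.86% of the counts in WT and 3.89% to 4.08% in Abcc4-/-. S100a8, S100a9 and Ngp, of granulocytes, were 1.81-fold, 1.72-fold and 1.70-fold higher in Abcc4-/- (edgeR, adjusted p = 0.000537, 0.000702 and 0.000393); 8 of the 10 rose and 1 fell. The 10 megakaryocyte and platelet markers, among them Itga2b, Gp9 and Gp1ba, took 0.0216% to 0.0274% in WT and 0.0123% to 0.0158% in Abcc4-/-; 8 fell and 1 rose. The 10 B lineage markers, among them Cd79a and Cd79b, took 0.0528% to 0.0762% and 0.103% to 0.112%, and 7 rose. In CPM the groups of all 10 were apart and higher in Abcc4-/-, beside 18.4% of all genes. The 10 T and NK markers, with Cd3e, Cd3d and Cd3g, took 0.0144% to 0.0162% and 0.0182% to 0.0204%, and 9 rose. As shares of summed TPM the T and NK groups overlapped, at 0.0221% to 0.0249% and 0.0245% to 0.0255%. Most of that sum was Nkg7, picked after its values were seen and the 1 marker of the list that did not rise. It had 182 ± 14.7 TPM in WT and 158 ± 5.58 TPM in Abcc4-/- (SD, n = 3; edgeR, adjusted p = 0.263). Monocyte and macrophage markers (Csf1r, Ccr2 and Ly6c2 among them) took 0.427% to 0.485% and 0.413% to 0.450%. Mast cell and basophil markers (Ms4a2, Fcer1a and Cpa3 among them) took 0.266% to 0.325% and 0.221% to 0.268%. In both lists 3 fell and 0 rose. In CPM 5 and 6 of these markers were apart and lower, beside 18.3% of all genes, and 0 were apart and higher. Erythroid markers (Hba-a1, Hba-a2 and Hbb-bs among them) took 0.0720% to 0.0778% and 0.0561% to 0.0817%. Of the 10, 2 rose: Klf1 and Epor, picked after their values were seen, were higher by 1.54-fold and 1.42-fold (adjusted p = 0.0131 and 0.0224). The 3 globin genes named did not pass, with log2 fold changes of -0.13, -0.18 and -0.16. Of the listed markers, Mcpt4 alone was at or near 0 in the 6 libraries. Counts of whole samples cannot tell more cells of a type from more RNA per cell, and the part of these markers in the values of the 10 genes was not tested.

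**Figure D4:**
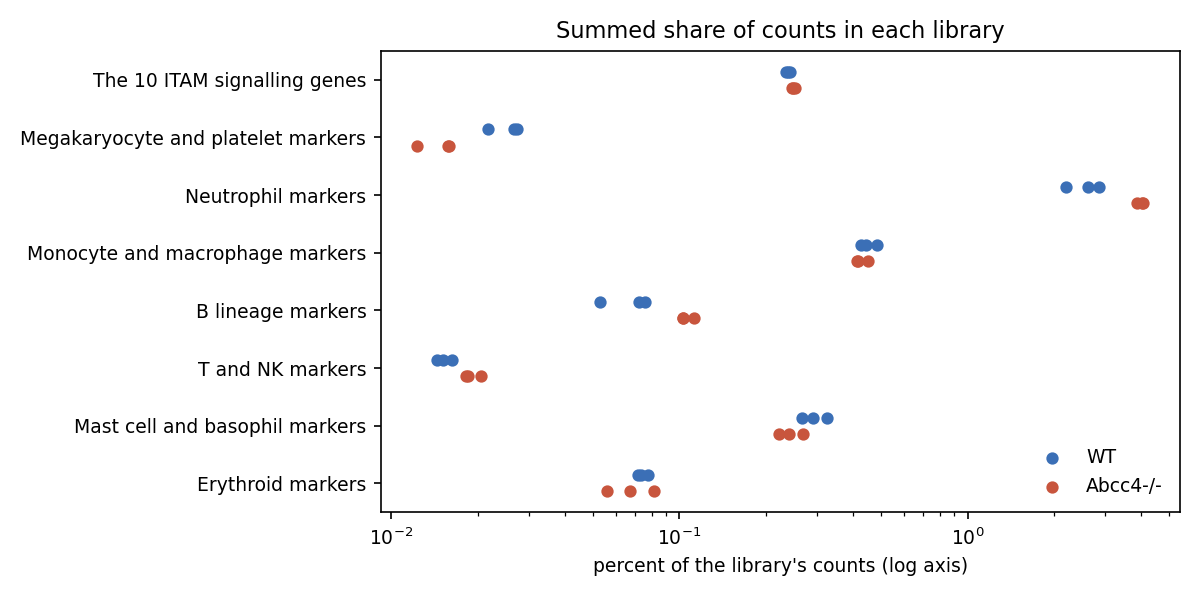
Summed share of each library's counts (log axis) taken by the 10 ITAM signalling genes and by marker lists of 7 cell types, 1 point per library. The 10 genes take 0.234% to 0.251%, while the neutrophil markers range from 2.20% to 4.08%.

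A larger share of the wider pathway was called, a difference that was not tested. The lists of the wider pathway were chosen with earlier results of these data known. Of 94 other genes of ITAM signalling, 93 were tested; 26 rose and 10 fell, beside 8.61% and 8.68% of all genes. Of the 94 genes, 7 are also in a cell type marker list. Among ITAM-linked receptors and signal chains, 7 of 19 rose and 3 fell. Trem1, a DAP12-coupled receptor that amplifies inflammation, fell 2.85-fold (174 ± 11.9 to 60.9 ± 4.03 CPM, SD, n = 3; edgeR, adjusted p = 5.24e-07). The activating receptor genes Cd300lb and Fcgr4 were higher by 1.36-fold and 1.30-fold (adjusted p = 0.000367 and 0.00472). Cd79b and Cd79a, whose ITAM sequences are shown above, rose 1.63-fold and 1.58-fold (adjusted p = 0.00517 and 0.0113); both are B lineage markers. Cd79a was picked after its values were seen, and leaving out WT replicate 3 ended its call (adjusted p = 0.0611).

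In the list of other Src, Syk and Tec family kinases, 7 of 11 rose and 0 fell (at an unadjusted p below 0.05, 8 higher and 1 lower; DESeq2 and limma-voom each called 7 higher and 0 lower), with a median log2 fold change of 0.37. Zap70 rose 2.24-fold from 1.73 ± 0.415 to 3.86 ± 0.207 CPM (SD, n = 3; edgeR, adjusted p = 0.000727), and the T cell kinase Lck 1.76-fold (adjusted p = 0.00131). The B cell kinase Blk rose 1.45-fold (adjusted p = 0.00438) and Bmx, a Tec family kinase of granulocytes and other cells, 1.29-fold (adjusted p = 0.00195). The myeloid Src kinase gene Fgr, picked after its values were seen, was 1.20-fold higher (adjusted p = 0.0156). Its call ended without Abcc4-/- replicate 2 or 3 (adjusted p = 0.0519 to 0.0546) and under every TPM fit (0.0586 to 0.155). Lck is itself in the T and NK list, and those markers and the B lineage and neutrophil markers were higher in the same libraries; their part in the kinase values was not tested.

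Adaptors and exchange factors went both ways, with 3 of 16 higher and 3 lower. Gab2, a docking adaptor for PI3-kinase and SHP2, fell 1.45-fold (94.6 ± 6.40 to 65.4 ± 4.97 CPM, SD, n = 3; edgeR, adjusted p = 0.000393) and Dapp1, an adaptor that binds PI3-kinase products, 1.28-fold (adjusted p = 0.00231). Nck1 rose 1.21-fold (adjusted p = 0.00457). Blnk, which takes the place of SLP-76 in B cells and is a B lineage marker, rose 1.66-fold (adjusted p = 0.00554). Among PI3-kinase, PKC, Ras and CARD9 effectors, 3 of 19 rose and 2 fell. Pik3ap1, an adaptor for PI3-kinase, and the GTPase gene Rac2, a target of Vav proteins, rose 1.25-fold and 1.20-fold (adjusted p = 0.00488 and 0.0118). Bcl10, which links ITAM receptors to NF-kB, and the calcium channel gene Itpr1 were lower by 1.18-fold and 1.17-fold (adjusted p = 0.00874 and 0.0354). The call of Rac2 ended without Abcc4-/- replicate 2 (adjusted p = 0.0619) and that of Itpr1 without WT replicate 1 or 3 or Abcc4-/- replicate 1 or 2 (0.0826 to 0.130). On log2(TPM + 1) the calls of Pik3ap1 and Itpr1 ended (0.0633 and 0.0611).

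Of 25 other inhibitors of the pathway, 6 rose and 2 fell. Ceacam1, an inhibitory receptor, rose 1.30-fold (199 ± 9.19 to 259 ± 6.01 CPM, SD, n = 3; edgeR, adjusted p = 0.000687). Pag1, which anchors the kinase that shuts off Src kinases, rose 1.30-fold (adjusted p = 0.00371), and Ptpn6, the gene of the phosphatase SHP1, 1.18-fold (adjusted p = 0.0129). Fcgr2b, the inhibitory Fc receptor that recruits SHIP1, fell 1.17-fold (adjusted p = 0.0118). The call of Pag1 ended under every TPM fit (adjusted p = 0.0602 to 0.256), that of Ptpn6 without Abcc4-/- replicate 2 (0.0569) and that of Fcgr2b without Abcc4-/- replicate 3 (0.0580). None of the 3 phosphatases that activate Src kinases (Ptprc, Ptprj and Ptpra) passed with edgeR, where 0 also had an unadjusted p below 0.05, or with DESeq2 or limma-voom. Over the 93 genes the median of the absolute log2 fold change was 0.17, beside 0.06 for the 10 genes and 0.13 for all genes tested. These groups were not matched for abundance, and sparse genes have less certain fold changes. The SE was 0.0448 to 0.0548 for the 10 genes, and as high as 0.421 among the 93, for Gp6.

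**Figure D5:**
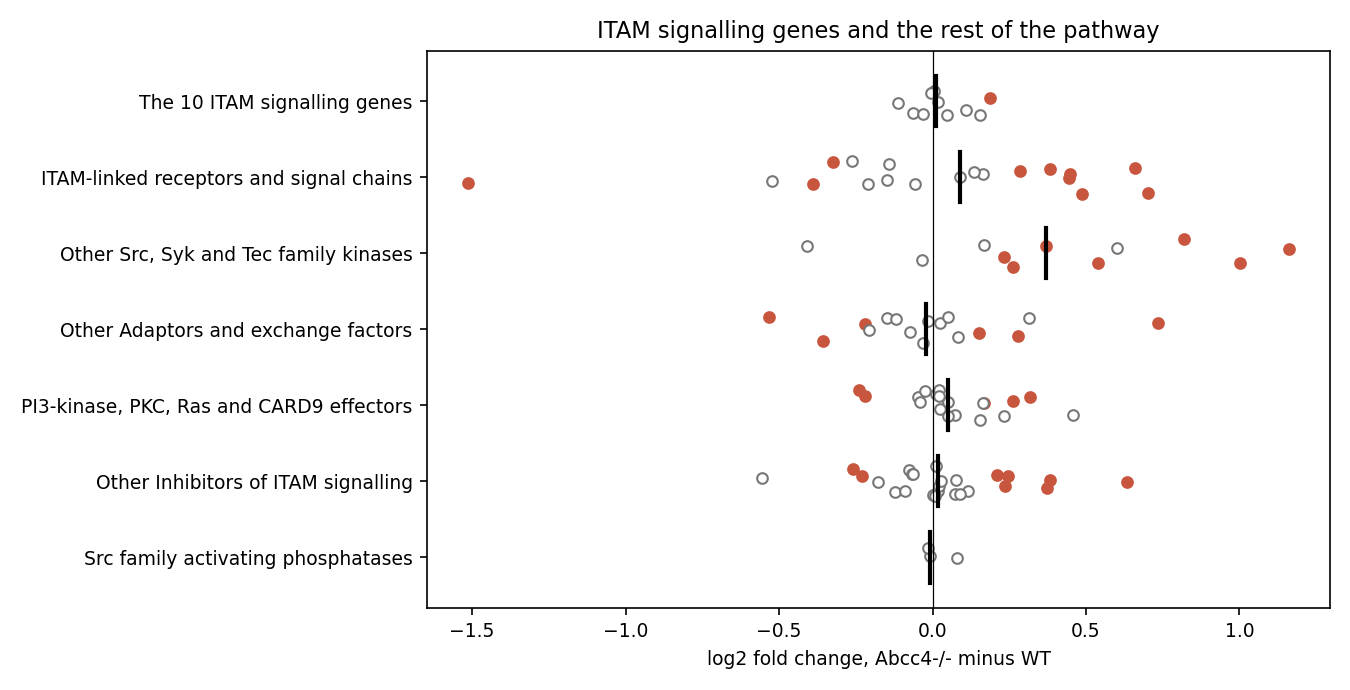
Log2 fold change, Abcc4-/- minus WT, of the 10 ITAM signalling genes and of the other pathway genes by list, 1 point per gene; filled red points have an adjusted p below 0.05 and black bars are list medians. The 10 genes lie between -0.11 and 0.19, while the receptors run from -1.51 to 0.70 and the other kinases from -0.41 to 1.16.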

How the data were processed

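The submitters' processing notes name STAR 2.7, RSEM 1.3.1 and mm10, and no gene annotation. As deposited, the authors' files give RSEM expected counts per gene without normalization, and TPM scaled within a library; per the file headers and names, counting was stranded. All 92 spike-in rows were dropped. Members were matched by symbol, and all 10 versioned identifiers equalled those of GENCODE M21 (GRCm38). Rounded expected counts entered edgeR 4.0.16 (R 4.3.3) with TMM, the default filter and the robust quasi-likelihood test over 16493 genes, with Benjamini-Hochberg adjustment and a threshold of 0.05. Intervals are 95% intervals from the quasi-likelihood SE. ITAM codons were searched in frame in the coding transcript numbered 201, as tyrosine signatures 6 to 12 codons apart. Clec1b held no such pair, so its first tyrosine signature near the start was taken, with flanking codons.

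The 10 genes and the gene lists were chosen with earlier results of these data known. Named are all 10 genes, Abcc4, Gp6, Clec1b and Lat, up to 4 called genes with the smallest adjusted p in each pathway list, and the leading 3 genes of each marker list. Also named are Plcg1 as a relative in a ratio, Gm26857 as an overlapping gene and Mcpt4 as a marker near 0. Ptprc, Ptprj and Ptpra are named as a whole list. Any other gene is marked as chosen after its values were seen. A few genes of these lists are not reported here by name. On simulated counts for these 16493 genes, the test recovered 57.5% of 1.5-fold changes, 77.1% of 2-fold changes and 92.3% of 4-fold changes. Smaller changes were not simulated. The changed genes were drawn at random from all genes tested, so these rates are not specific to the 10 genes. They were also a far smaller share of the genes than the 17.3% called here, so the rates need not hold for these data. Alternatives were other normalizations and filters, DESeq2 1.42.0, limma-voom (limma 3.58.1), a replicate block, thinning to the smallest library, leaving out each library, and limma on log2 of the deposited TPM with a pseudocount of 1 or 0.1, where changes of low genes are understated. Centring TPM was added after seeing the data.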

Additional observations from a re-analysis of the deposited data

How the results depend on the processing

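Syk kept its direction under the 17 alternatives run and its call under 9 of them. The number of members called higher was 2 with DESeq2 and with the replicate block (Fcer1g joining), 0 on log2(TPM + 1), log2(TPM + 0.1) and centred TPM, and 0 to 1 with a library left out. The number called lower was 1 on log2(TPM + 1) and log2(TPM + 0.1) (Lcp2). Genes called numbered 1760 to 2415 with a library left out, against 2852: 823 to 1247 of them higher and 897 to 1265 lower. The lowest counts were 1821 without Abcc4-/- replicate 1 and 1760 without Abcc4-/- replicate 2. The TPM scales gave 599 and 602 genes higher (28.4% and 27.9% of calls, against 49.8%), and centred TPM 856 lower (57.0% of calls higher). The cause of these shifts was not tested.

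Signs turned only for genes whose test did not pass. Among members, log2 fold changes on log2(TPM + 1) and log2(TPM + 0.1) were -0.0334 and -0.0339 for Btk, -0.0739 and -0.0759 for Fyn, and -0.0631 and -0.0636 for Vav1. Plcg2 gave 0.0025 without a filter and 0.0059 on centred TPM. With a library left out the ranges were -0.0215 to 0.0053 for Plcg2, -0.0266 to 0.0393 for Fyn, -0.0057 to 0.0479 for Vav1 and -0.0661 to 0.0032 for Inpp5d. Of the other genes, Clec1b gave -0.0586 and -0.0934 on the TPM scales and -0.0635 to 0.2258 with a library left out, and on centred TPM Gp6 gave 0.0705 and Mpig6b 0.0016. As a share of summed TPM in place of counts, the difference between genotypes (Abcc4-/- minus WT, in percentage points) was 4.06 for neutrophil (1.43 in counts), 0.00126 for T and NK (0.00377 in counts; exact p = 0.2 and 0.1) and -0.0303 for erythroid markers (-0.00604 in counts).

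Replicate numbers did not pair the libraries: deviations from the group means of same-numbered libraries correlated at -0.046, -0.026 and -0.014 across genes, and no library correlated best with that of its own number. With the replicate number as a block, 3157 genes were called, and Cd79a and Blnk did not pass (edgeR, adjusted p = 0.105 and 0.0677). The 10 genes had at least 3019 counts per library, and whether depth limited their calls was not tested. Gp6, with 6 to 18 counts, is too sparse for a difference of moderate size to be detected.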
